A study of Mus musculus with 12 samples.

Results

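The genes described are insulin-like growth factor 1 (Igf1), its receptor (Igf1r) and 6 genes of the IGF-binding protein family (Igfbp2, Igfbp3, Igfbp4, Igfbp5, Igfbp6 and Igfbp7). They were taken by symbol from a table of 24098 mouse genes, and all 8 were found in it. Of the 24098 genes, 14178 reached 1 FPKM (fragments per kilobase of transcript scaled to the mapped fragments of the library, a level per length) in at least 1 library and were kept, and the 8 were among them. Igf1 was kept through D0 and D3 alone and stayed below 1 FPKM in the other 10 libraries.

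The mRNA libraries followed mouse embryonic fibroblasts (MEFs) on their way to induced pluripotent stem cells (iPSCs), with 1 library for each of 12 conditions. The MEFs came from E13.5 embryos with an IRES-EGFP cassette behind the stop codon of Oct4, and were infected with pMXs retroviruses for Oct4, Sox2, Klf4 and c-Myc (OSKM). D0 cells, given as WT in the labels, and D3 cells were unsorted. Thy-1, a fibroblast surface protein, was used to sort days 6 and 9 (D6T-, D6T+, D9T-, D9T+), and SSEA-1, a carbohydrate antigen of pluripotent cells, to sort days 12 and 16 (D12S+, D12S-, D16S+, D16S-). The study took Thy-1- and SSEA-1+ cells as those reprogramming successfully and the opposite fractions as unsuccessful. Established iPSCs and mESCs, the embryonic stem cell line ES-D3, were the end points, and as a separate line the mESCs did not share the origin of the MEFs. Whether the iPSCs were 1 clone, and how many embryos gave the MEFs, is not given in the sources used here. By the labels, MEFs were kept in serum, whereas reprogramming cells, iPSCs and mESCs received a feeder-free medium with serum replacement, LIF, bFGF, CHIR99021, ascorbic acid and N-2, a supplement that contains insulin. The study's methods also name other media, with serum or serum replacement and LIF, for reprogramming cells, iPSCs and mESCs. Medium and OSKM therefore cannot be told apart in comparisons with D0.

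IGF-1 and IGF-2 are secreted peptides that activate the receptor tyrosine kinase encoded by Igf1r, which signals through IRS adaptors, PI3-kinase and AKT to growth and survival. IGF-binding proteins are secreted carriers that hold IGFs away from the receptor, prolong their stay in tissue or concentrate them in the matrix, and proteases release the bound hormone. IGFBP-7 is a related secreted matrix protein with low affinity for IGFs, and fibroblasts and other mesenchymal cells are known sources of several of these carriers.

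With no replicates, no difference below has a replicate check and no p-value can be given. A gene was counted as higher or lower when its log2(FPKM + 1) differed by at least 2-fold, and the share of all 14178 kept genes past the same fold is given as background. The interval that cuffdiff attached to each FPKM (95% by its default) is modelled, and it was wide. It reached 0 in 46 of the 96 member values, in all 12 libraries for Igf1 and Igfbp7. For Igfbp2 it reached 0 in 7 libraries, among them mESCs, D12S+ and D16S+, where Igfbp2 was highest. For Igfbp3 it did so in 3, among them D16S-, where Igfbp3 was highest. When the 12 libraries were ordered by level, the intervals of neighbouring libraries overlapped in all 88 neighbour pairs of the 8 genes. Of all 528 pairs of libraries, 14 had intervals apart, 9 for Igfbp5 and 5 for Igfbp6, each with iPSCs or mESCs on the low side. Such pairs were not counted over all genes. In single comparisons, however, intervals apart were rare among the 14178 genes too. In iPSCs against D0, 66 genes were higher and 74 lower with intervals apart, and in mESCs against D0, 67 and 106. D6T- against D6T+ had 0 higher and 0 lower. The total FPKM was between 484968 in D16S+ and 648264 in D0, and relative depth, estimated from the steps of low values, was between 0.966 of D0 in D9T+ and 1.56 in D6T-.

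The labelled cell types were checked against marker lists. The 15 fibroblast markers summed to 13896 FPKM in D0 and to 197 FPKM in iPSCs, and the sum of 14 pluripotency markers was 3.82 FPKM in D0 but 4011 FPKM in iPSCs and 4305 FPKM in mESCs. Skeletal muscle markers (6 genes) summed to 75.8 FPKM in D0, with the muscle regulator Myog at 24.2 FPKM, to 17.4 FPKM in D3 and to at most 4.21 FPKM elsewhere. Smooth muscle markers (6 genes) lay between 35.0 FPKM in D6T- and 1808 FPKM in D0, with 482 FPKM in iPSCs and 65.8 FPKM in mESCs. Endothelial markers (7 genes) summed to between 8.93 and 46.9 FPKM, leukocyte markers (7 genes) to between 9.16 and 81.1 FPKM, hepatocyte markers (6 genes) to between 1.34 and 25.8 FPKM, and keratinocyte markers (6 genes) to between 0.437 FPKM in D0 and 47.6 FPKM in D16S-. Among leukocyte markers Ptprc was at most 0.425 FPKM, whereas Laptm5 reached 57.3 and Csf1r 19.9 FPKM in D16S-. Among hepatocyte markers Serpina1a was listed at 0 in all libraries, whereas Apoa2 reached 25.7 FPKM in D12S+. In such bulk samples, fewer cells of a type and less RNA per cell cannot be told apart.

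The 8 genes lie on 6 chromosomes (mm9, GENCODE M1, all protein coding). Igfbp2 (chr1:72871077-72899048, plus strand) and Igfbp5 (chr1:72904506-72921458, minus strand) are neighbours whose 3' ends face each other over 5457 bases. Igfbp3 (chr11:7106089-7113926, minus strand) lies 3539 bases from Igfbp1, another carrier gene, and Igfbp4 (chr11:98902558-98913969, plus strand) is on the same chromosome. Igf1 is at chr10:87321010-87399792 (plus strand), Igf1r at chr7:75097713-75371484 (plus strand) and Igfbp6 at chr15:101974793-101979942 (plus strand). Igfbp7 (chr5:77778265-77837070, minus strand) shares 85 bases with the 3' end of Polr2b, and the deposited table gives 1 locus to both. Whether strand was used in counting is not given in the sources used here. Polr2b was between 9.45 and 33.5 FPKM over the 12 libraries.

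Promoters are shown for the 4 carrier genes that led the summed level in some library, as 300 bases from 250 before to 50 after the start (RefSeq, GRCm38.p6). The windows are Igfbp2 at chr1:72824230-72824529 (plus strand), Igfbp3 at chr11:7213874-7214173 (minus strand), Igfbp4 at chr11:99040994-99041293 (plus strand) and Igfbp7 at chr5:77407996-77408295 (minus strand). Capitals mark matches, on either strand, to the letters of 6 motifs, searched as follows. The TATA box was searched as TATAAA and the E-box, which Myc-family proteins can bind, as CACGTG. The GC box of Sp1-type factors was searched as GGGCGG and the motif of Klf factors as GGGNGTGG. The AP-1 motif was searched as TGANTCA, and the octamer of Oct factors as ATGCAAAT.
Igfbp2: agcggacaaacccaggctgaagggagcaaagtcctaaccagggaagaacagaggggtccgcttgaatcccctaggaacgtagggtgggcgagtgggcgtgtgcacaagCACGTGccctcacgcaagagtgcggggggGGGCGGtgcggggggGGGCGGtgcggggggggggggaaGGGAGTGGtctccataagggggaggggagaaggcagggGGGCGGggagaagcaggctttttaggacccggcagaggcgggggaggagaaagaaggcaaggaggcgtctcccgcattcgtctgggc
Igfbp3: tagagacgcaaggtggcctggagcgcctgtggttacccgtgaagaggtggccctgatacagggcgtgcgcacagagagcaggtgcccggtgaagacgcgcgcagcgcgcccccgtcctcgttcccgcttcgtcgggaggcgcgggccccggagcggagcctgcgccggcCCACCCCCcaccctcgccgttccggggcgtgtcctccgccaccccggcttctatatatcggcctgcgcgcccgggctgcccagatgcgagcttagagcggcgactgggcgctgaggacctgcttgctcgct
Igfbp4: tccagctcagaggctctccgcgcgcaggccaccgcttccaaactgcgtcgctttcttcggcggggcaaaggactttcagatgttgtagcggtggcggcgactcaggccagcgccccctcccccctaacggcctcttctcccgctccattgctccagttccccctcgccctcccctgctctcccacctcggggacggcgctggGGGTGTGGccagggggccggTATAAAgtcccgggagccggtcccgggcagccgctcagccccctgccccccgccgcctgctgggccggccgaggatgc
Igfbp7: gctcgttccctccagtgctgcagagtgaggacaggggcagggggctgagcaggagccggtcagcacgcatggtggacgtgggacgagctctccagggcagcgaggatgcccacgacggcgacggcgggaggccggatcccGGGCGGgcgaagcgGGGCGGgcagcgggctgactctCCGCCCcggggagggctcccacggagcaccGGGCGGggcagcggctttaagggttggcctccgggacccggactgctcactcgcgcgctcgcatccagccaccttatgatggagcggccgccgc
All 4 windows were rich in G and C, at 67% for Igfbp2, 71.7% for Igfbp3, 71.3% for Igfbp4 and 73.3% for Igfbp7, where the median of 32851 mouse promoters was 52.7%. They held 18, 37, 27 and 33 CpG pairs in the same order, against a median of 7. Igfbp2 held 1 E-box, 3 GC boxes and 1 Klf motif. Igfbp7 held 4 GC boxes, Igfbp4 a TATA box at -28 and a Klf motif, and Igfbp3 a Klf motif on the opposite strand. No matches overlapped each other. Of all promoters, 13.6% held the TATA box, 7.15% the E-box, 35.7% the GC box, 17.6% the Klf motif, 7.81% the AP-1 motif and 1.74% the octamer.

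The other 5 windows of the 8 genes, among them the second of 2 Igfbp2 starts 907 bases downstream, differed more in composition. The share of G and C was 76% for Igf1r with 48 CpG pairs, and 49.7% for Igfbp6, 52.3% for Igf1, 56.3% for Igfbp5 and 57.3% for the downstream Igfbp2 start. Igf1r held 2 GC boxes, Igf1 and the downstream Igfbp2 start an AP-1 motif each, Igfbp6 a TATA box on the opposite strand, and Igfbp5, Igfbp6 and the downstream Igfbp2 start a Klf motif each. The octamer was in none of the 9 windows. A match describes letters and not a bound site, and its absence says only that these letters are not in the window.

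Igf1, the ligand, was low throughout. Its level was 1.76 FPKM in D0, 1.35 in D3, 0.487 in D6T-, 0.361 in D9T-, 0.0258 in D12S+, 0.0697 in D16S+, 0.0434 in iPSCs and 0.287 in mESCs. In the opposite fractions it was 0.755 FPKM in D6T+, 0.513 in D9T+, 0.137 in D12S- and 0.596 in D16S-. D0 and D3 were the highest libraries, and D12S+, iPSCs and D16S+ the lowest.

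Igf1r, the receptor, had the smallest ratio of highest to lowest FPKM among the 8 genes. It was at 14.5 FPKM in D0, 14.8 in D3, 10.6 in D6T-, 12.2 in D9T-, 7.63 in D12S+, 4.15 in D16S+, 7.21 in iPSCs and 6.48 in mESCs. The Thy-1+ and SSEA-1- fractions stayed near the fibroblasts, with 13.5 FPKM in D6T+, 16.3 in D9T+, 15.1 in D12S- and 12.6 in D16S-. That ratio was 3.92, and the 4 libraries of SSEA-1+ and pluripotent cells were the lowest 4.

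Igfbp2, a carrier abundant in the embryo, was highest in mESCs, D12S+ and D16S+. It was at 12.9 FPKM in D0, 15.0 in D3, 8.75 in D6T-, 128 in D9T-, 799 in D12S+, 756 in D16S+, 247 in iPSCs and 841 in mESCs. The opposite fractions had 6.88 FPKM in D6T+, 98.0 in D9T+, 301 in D12S- and 338 in D16S-. All libraries from day 9 onwards, of either fraction, stood above all libraries up to day 6. Between days 6 and 9 the log2(FPKM + 1) difference was 3.72 in Thy-1- cells, the 11th largest increase among the 14178 genes, and 3.65 in Thy-1+ cells, the 9th largest. By level, Igfbp2 was the 7439th gene in D6T+ and the 84th in both D12S+ and D16S+.

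Igfbp3, the main IGF carrier of serum, was highest in the Thy-1+ and SSEA-1- fractions. It was at 61.8 FPKM in D0, 96.8 in D3, 97.9 in D6T-, 101 in D9T-, 132 in D12S+, 58.5 in D16S+, 8.56 in iPSCs and 5.59 in mESCs. The Thy-1+ and SSEA-1- fractions had 224 FPKM in D6T+, 201 in D9T+, 292 in D12S- and 553 in D16S-. These 4 libraries were the highest 4, and in D16S- Igfbp3 was the 137th gene by level. D16S- was also the highest library for the keratinocyte (47.6 FPKM), leukocyte (81.1 FPKM) and endothelial (46.9 FPKM) marker sums, whose part in the Igfbp3 level was not tested. These sums came mostly from Krt14 (39.9 FPKM), from Laptm5 (57.3 FPKM) and Csf1r (19.9 FPKM), and from Esam (32.6 FPKM). Other markers of these lists were low in D16S-, with Krt5 at 1.64 FPKM, Ptprc at 0.0269, Kdr at 0.311 and Emcn at 0.

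Igfbp4, a carrier cleaved by the protease PAPP-A, was high in fibroblasts and in the opposite fractions. It was at 267 FPKM in D0, 47.6 in D3, 33.9 in D6T-, 30.7 in D9T-, 72.5 in D12S+, 23.5 in D16S+, 7.004 in iPSCs and 18.1 in mESCs. The opposite fractions had 277 FPKM in D6T+, 239 in D9T+, 147 in D12S- and 203 in D16S-. The level of D3 lay below D0 and below each of these 4 fractions.

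Igfbp5, which also binds the extracellular matrix, was highest in D0. Its level was 93.9 FPKM in D0, 5.86 in D3, 7.71 in D6T-, 16.8 in D9T-, 13.0 in D12S+, 2.17 in D16S+, 0.278 in iPSCs and 0.420 in mESCs. The opposite fractions had 22.8 FPKM in D6T+, 35.7 in D9T+, 22.1 in D12S- and 18.4 in D16S-. The next library after D0 was D9T+, and the intervals of D0 (3.08 to 185 FPKM) and iPSCs (0 to 0.876 FPKM) did not overlap.

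Igfbp6, a carrier that prefers IGF-2 over IGF-1, was highest in Thy-1+ cells. Its level was 76.9 FPKM in D0, 67.3 in D3, 69.6 in D6T-, 45.8 in D9T-, 50.8 in D12S+, 11.1 in D16S+, 8.83 in iPSCs and 1.18 in mESCs. The opposite fractions had 253 FPKM in D6T+, 195 in D9T+, 103 in D12S- and 94.8 in D16S-, all above D0. The 3 lowest libraries were D16S+, iPSCs and mESCs.

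Igfbp7, the low-affinity matrix protein, was highest in D0 and lower in every later library. Its level was 479 FPKM in D0, 227 in D3, 14.3 in D6T-, 7.90 in D9T-, 14.9 in D12S+, 4.11 in D16S+, 4.00 in iPSCs and 1.71 in mESCs. The opposite fractions had 151 FPKM in D6T+, 81.1 in D9T+, 23.3 in D12S- and 23.3 in D16S-. It was the 202nd gene by level in D0, and its highest level was 280.2 times its lowest.

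**Figure D1:**
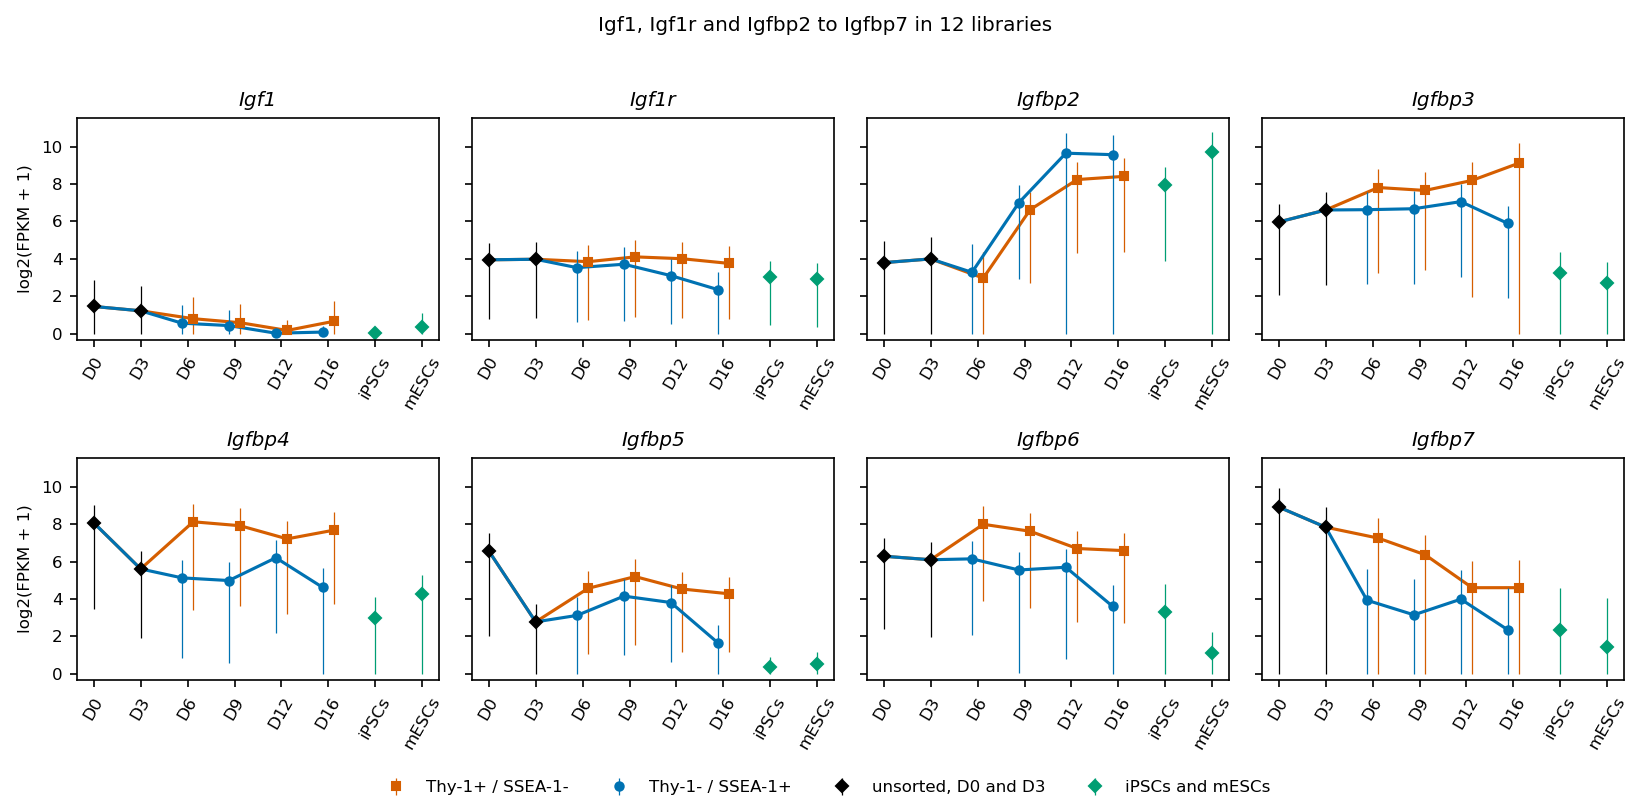
Level of each of the 8 genes as log2(FPKM + 1) in the 12 libraries, with the deposited cuffdiff interval as a vertical line and no replicates; lines join D0, D3 and the sorted fractions of days 6 to 16 on each side. Igfbp2 is at 799 and 756 FPKM in D12S+ and D16S+ against 12.9 FPKM in D0, whereas Igfbp4 and Igfbp7 lie at 23.5 and 4.11 FPKM in D16S+ against 267 and 479 FPKM in D0.

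Since FPKM is per length, the 6 carrier genes can be set side by side. Their summed level was 991 FPKM in D0 and 459 in D3, and on the Thy-1- and SSEA-1+ side 232 in D6T-, 330.1 in D9T-, 1083 in D12S+ and 855 in D16S+. It was 934 FPKM in D6T+, 849.9 in D9T+, 887 in D12S- and 1232 in D16S-, and 276 FPKM in iPSCs and 868 in mESCs. D0, D16S+ and mESCs had sums between 855 and 991 FPKM, but the leading gene was Igfbp7 in D0 and Igfbp2 in D16S+ and mESCs. Igfbp7 took 48.3% of the sum in D0 and 49.4% in D3, followed in D0 by Igfbp4 with 27.0%. Igfbp3 led in D6T- with 42.2%. Igfbp2 took 38.6% in D9T-, 73.8% in D12S+, 88.4% in D16S+, 89.6% in iPSCs and 96.9% in mESCs. In the opposite fractions the leading carrier took between 28.2% and 44.9%. Igfbp4 led with 29.7% in D6T+ and 28.2% in D9T+, Igfbp2 (33.9%) and Igfbp3 (32.9%) were close in D12S-, and Igfbp3 led with 44.9% in D16S-, ahead of Igfbp2 with 27.5% and Igfbp4 with 16.5%.

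**Figure D2:**
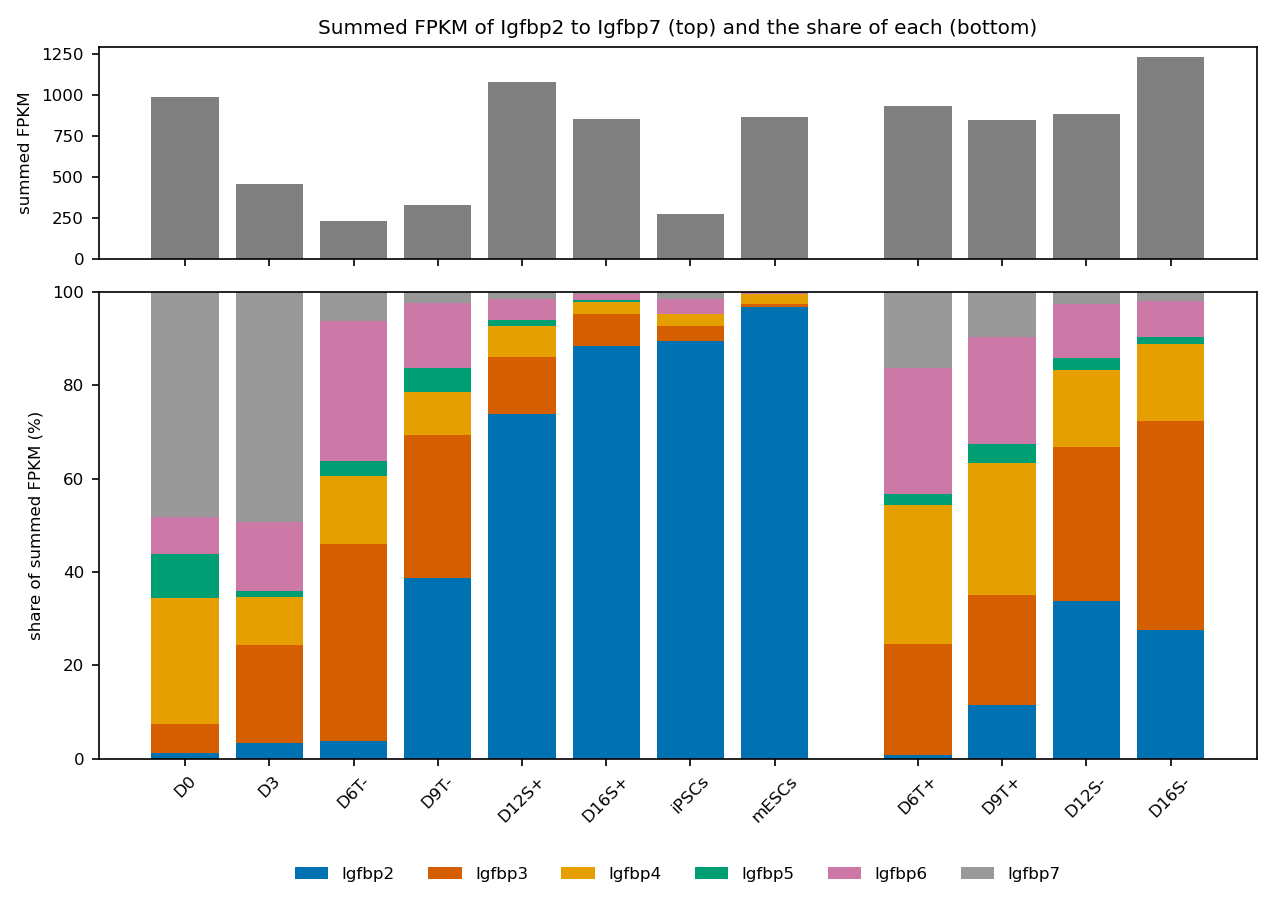
Summed FPKM of Igfbp2 to Igfbp7 in each library (upper bars) and the percentage of that sum from each gene (lower stacked bars), 1 library per bar. Igfbp2 fills 88.4% of the sum in D16S+ and 27.5% in D16S-, and Igfbp7 48.3% in D0.

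The first comparison asked what changed in the 3 days after OSKM induction. Against D0, D3 had 3 of the 8 genes lower and 0 higher. Igfbp5 differed by -3.79, Igfbp4 by -2.46 and Igfbp7 by -1.07 on the log2(FPKM + 1) scale. Among all kept genes 8.67% were lower and 5.76% higher, and the median was -0.21 over the 8 genes and -0.02 over all. Igfbp5 had the 44th largest decrease of the 14178 genes. The fibroblast marker sum was 7438 FPKM in D3 and 13896 in D0, and the skeletal muscle sum 17.4 and 75.8 FPKM. The part of these cells in the differences was not tested. Of the genes past 2-fold, 39.9% were higher as deposited and 56.5% after scaling each library to the same total FPKM, where Igfbp7 (-0.81) no longer passed.

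D6T+ cells, which keep Thy-1, were next compared with D0. Igfbp3 (1.84) and Igfbp6 (1.70) were higher, and Igfbp5 (-2.00) and Igfbp7 (-1.66) lower. This made 2 of 8 higher, where 4.83% of all genes were, and 2 of 8 lower, where 4.39% were. The median was -0.38 over the 8 genes and -0.01 over all. Igfbp4, lower in D3, was at 277 FPKM in D6T+ and 267 in D0. Against D3, D6T+ was higher by 2.52 for Igfbp4, 1.89 for Igfbp6, 1.79 for Igfbp5 and 1.20 for Igfbp3, and Igfbp2 differed by -1.02. Of all genes past 2-fold against D0, 52.4% were higher as deposited and 70.0% with equal totals. The fibroblast sum was 8115 FPKM in D6T+.

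Next, the fractions of a given day were compared to ask how cells on the successful route differ from cells of the same day that are not. In D6T- against D6T+, 5 of the 8 genes were lower and 0 higher. The log2 differences were -3.31 for Igfbp7, -2.99 for Igfbp4, -1.84 for Igfbp6, -1.45 for Igfbp5 and -1.18 for Igfbp3. Among all genes 9.47% were lower and 2.93% higher, and the medians were -1.32 for the 8 genes and 0.00 for all. Igfbp7 had the 25th largest decrease. In D9T- against D9T+, 4 were lower (Igfbp7 by -3.21, Igfbp4 by -2.93, Igfbp6 by -2.07 and Igfbp5 by -1.04) and 0 higher, where 6.45% of all genes were lower and 1.81% higher. Igfbp3, at -0.98, was just short of 2-fold, and the medians were -1.01 and 0.02. With equal totals Igfbp5 (-0.93) no longer passed, which left 3 lower.

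In D12S+ against D12S-, Igfbp2 (1.41) was higher, and Igfbp3 (-1.13) and Igfbp4 (-1.01) lower. Thus 1 of 8 was higher with a background of 4.79%, and 2 of 8 lower with a background of 3.03%. Igfbp6, at 50.8 FPKM in D12S+ and 103 in D12S-, fell just short of the fold and Igfbp4 was just past it. The medians were -0.81 for the 8 genes and -0.01 for all. Day 16 had the larger differences. In D16S+ against D16S-, 6 of 8 were lower, with -3.22 for Igfbp3, -3.06 for Igfbp4, -2.98 for Igfbp6, -2.61 for Igfbp5, -2.25 for Igfbp7 and -1.40 for Igf1r. Igfbp2 (1.16) was higher and Igf1 differed by -0.58. Among all genes 15.2% were lower and 11.8% higher, and the medians were -2.43 for the 8 genes and -0.02 for all.

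Over the 4 days, each with its own libraries, Igfbp4 was at least 2-fold lower on the Thy-1- or SSEA-1+ side on every day, as were 152 of the 14178 genes (1.07%). Its smallest difference was that of day 12, which became -0.96 with equal totals. Igfbp3, Igfbp5, Igfbp6 and Igfbp7 passed 2-fold on 3 of 4 days, and how many of all genes did so was not counted. At any size, 7 of the 8 genes were lower on all 4 days, as were 24.8% of all genes. The exception was Igfbp2, with 0.31, 0.38, 1.41 and 1.16 on days 6, 9, 12 and 16. These directions held under each scaling and pseudocount tried, which could hardly have come out otherwise. A pseudocount cannot turn a sign, and the scalings moved the smallest Igfbp2 difference (0.31) only to 0.37 with equal totals and 0.27 with median-of-ratios scaling. The fibroblast marker sum also differed between the fractions, with 2360 FPKM in D6T- and 8115 in D6T+, 2057 in D9T- and 6240 in D9T+, 1359 in D12S+ and 3481 in D12S-, and 274 in D16S+ and 3275 in D16S-. This sum includes Thy1, the gene of the protein sorted on days 6 and 9. Thy1 was at 3.24 FPKM in D6T- and 477 in D6T+, and at 3.72 in D9T- and 491 in D9T+. The smooth muscle sum was likewise lower on the Thy-1- or SSEA-1+ side, with 35.0 FPKM in D6T- and 416 in D6T+, 107 in D9T- and 221 in D9T+, 55.5 in D12S+ and 120.0 in D12S-, and 66.6 in D16S+ and 193 in D16S-. The part of these marker sums in the differences was not tested.

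**Figure D3:**
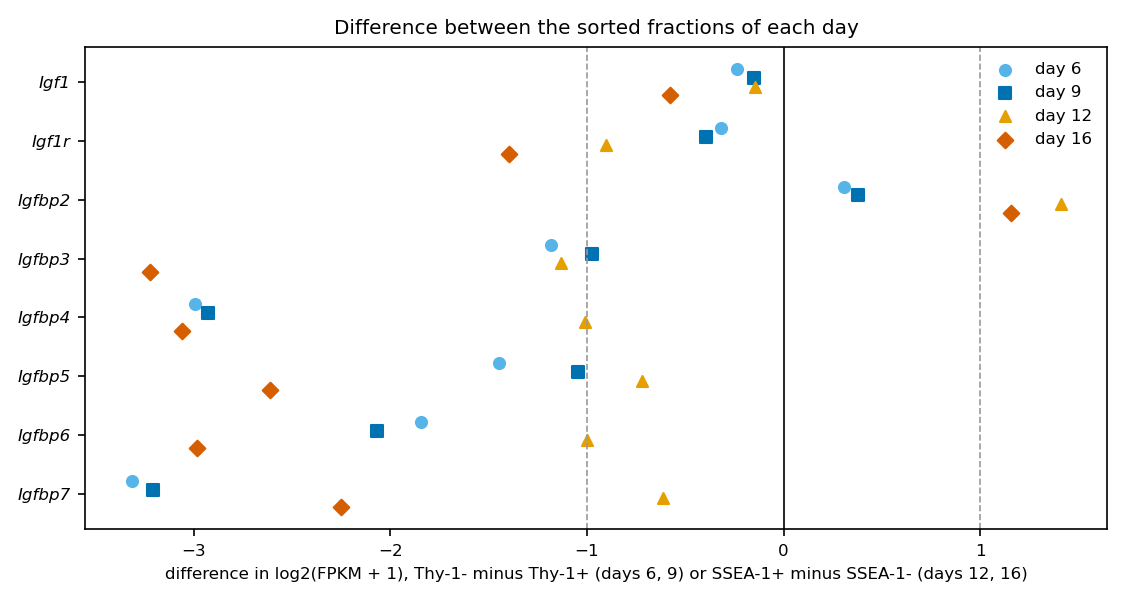
Difference in log2(FPKM + 1) between the sorted fractions of days 6, 9, 12 and 16 for the 8 genes, 1 library per fraction; dashed lines mark 2-fold. Igfbp2 lies right of 0 on each day, and Igfbp4 lies left of -1 on each day, on day 12 at -1.01.

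At day 16 the fractions were also compared with the starting fibroblasts, and these comparisons share the D0 library with each other and with those of D3, D6T+ and iPSCs. In D16S+ against D0, Igfbp2 was higher by 5.76, the 47th largest increase. Lower were Igfbp7 (-6.55), Igfbp5 (-4.91), Igfbp4 (-3.45), Igfbp6 (-2.68), Igf1r (-1.59) and Igf1 (-1.37), while Igfbp3 differed by -0.08. This is 1 of 8 higher, where 20.0% of all genes were, and 6 of 8 lower, where 20.9% were, with medians of -2.14 for the 8 genes and 0.05 for all. Igf1 had passed the filter through D0 and D3 alone, where it is high, and without it 5 of 7 were lower. Equal totals moved the share of higher genes among those past 2-fold from 48.9% to 65.6%, and the median of all genes from 0.05 to 0.35, the widest shift of that median among the 11 comparisons. Igfbp3 then differed by 0.33.

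In D16S- against D0, 4 of the 8 genes passed 2-fold. Igfbp2 (4.60) and Igfbp3 (3.14) were higher and Igfbp7 (-4.30) and Igfbp5 (-2.29) lower. That made 2 of 8 higher with a background of 12.8% and 2 of 8 lower with a background of 11.4%, and the medians were -0.29 and 0.00. Igfbp4 was at 203 FPKM against 267, Igfbp6 at 94.8 against 76.9 and Igf1r at 12.6 against 14.5, all within 2-fold. With equal totals, the share of higher genes among all past 2-fold was 68.2% in place of 52.9%.

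The end points were compared next. In iPSCs against D0, Igfbp2 was higher by 4.15, and 6 of 8 were lower, with Igfbp7 at -6.58, Igfbp5 at -6.21, Igfbp4 at -5.07, Igfbp6 at -2.99, Igfbp3 at -2.71 and Igf1 at -1.40. Igf1r, at -0.92, was within 2-fold. Without Igf1, kept through D0 and D3 alone, 5 of 7 were lower. Among all genes 18.7% were higher and 21.6% lower, and the medians were -2.85 for the 8 genes and 0.03 for all. Igfbp7 had the 26th largest decrease. Igfbp5 was the single case with intervals apart among the 88 member differences of the 11 comparisons. Over all 14178 kept genes, iPSCs against D0 had 66 higher and 74 lower with intervals apart. The fibroblast sum was 197 FPKM in iPSCs and 13896 in D0, and its part was not tested.

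In iPSCs against D16S+, 4 of 8 were lower and 0 higher, namely Igfbp3 (-2.64), Igfbp2 (-1.61), Igfbp4 (-1.61) and Igfbp5 (-1.31). The background was 7.77% lower and 4.38% higher, and the medians were -0.81 and -0.01. Of all genes past 2-fold, 36.1% were higher as deposited and 22.9% with equal totals. Against mESCs, iPSCs had Igfbp6 higher (2.17) and Igfbp2 (-1.76) and Igfbp4 (-1.26) lower. This was 1 of 8 higher with a background of 6.79% and 2 of 8 lower with a background of 7.41%, and the medians were both -0.01. The level of Igfbp2 in D16S+ (756 FPKM) was closer to mESCs (841 FPKM) than that of iPSCs was (247 FPKM). Smooth muscle markers summed to 482 FPKM in iPSCs, 66.6 in D16S+ and 65.8 in mESCs. Fibroblast markers summed to 197, 274 and 304 FPKM in the same order. The part of these marker sums in the differences was not tested.

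The course of each gene over the 12 libraries was set against 8804 genes with at least 10 FPKM in some library. These are descriptions over 12 libraries of 1 reprogramming series, in which many genes share the contrast between fibroblasts and pluripotent cells. For Igfbp2, the most similar were Ppfibp2 (Pearson r of log2(FPKM + 1) 0.985), the glucose transporter gene Slc2a1 (0.968) and the transcription factor gene Tfap2c (0.967). For Igfbp3 they were the protease inhibitor gene Cst6 (0.991), Ociad2 (0.970) and the mesothelial surface gene Msln (0.966).

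Igfbp7 was closest to Tnc, which encodes tenascin C (0.988), Bgn, which encodes biglycan (0.987), and Rab21 (0.983). Igfbp5 was closest to the collagen gene Col6a2 (0.983), Rab31 (0.982) and Btd (0.980). Igfbp4 was closest to Crabp1 (0.970), which encodes a retinoic acid carrier, Slit3 (0.967) and the extracellular superoxide dismutase gene Sod3 (0.966). Igfbp6 was closest to Tnfsf9 (0.980), Zbtb7a (0.972) and the protease inhibitor gene Serpine2 (0.969). The nearest genes were Romo1 (0.952), Ece1 (0.950) and Sirt2 (0.948) for Igf1r and Gorasp2 (0.963), Srprb (0.950) and Actr1b (0.947) for Igf1. Among the 8 genes, the highest correlations were 0.89 between Igfbp4 and Igfbp5 and 0.87 between Igfbp3 and Igfbp6, and the neighbours Igfbp2 and Igfbp5 had -0.45.

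The wider pathway was described with 48 further genes, of which 42 were kept. In iPSCs against D0, 7 were higher (16.7%, near the 18.7% of all genes) and 14 lower (33.3%, against 21.6%). In D16S+ against D16S-, 1 was higher (2.38%, against 11.8%) and 11 lower (26.2%, against 15.2%). In D6T- against D6T+, 0 were higher, where 2.93% of all genes were, and 11 lower (26.2%, against 9.47%). In D9T- against D9T+, 0 were higher, where 1.81% were, and 6 lower (14.3%, against 6.45%). Day 12 had 1 higher (2.38%, against 4.79%) and 2 lower (4.76%, against 3.03%). For the Thy-1- cells of days 6 and 9, 0 of 42 higher is near the low shares of all genes (2.93% and 1.81%). With a pseudocount of 0.1 FPKM, 1 was higher on day 6. Against D0, D3 had 4 higher (9.52%, against 5.76%) and 5 lower (11.9%, against 8.67%), and D6T+ had 3 higher (7.14%, against 4.83%) and 4 lower (9.52%, against 4.39%). D16S+ had 7 higher (16.7%, against 20.0%) and 15 lower (35.7%, against 20.9%), and D16S- had 9 higher (21.4%, against 12.8%) and 10 lower (23.8%, against 11.4%). In iPSCs, 3 were higher (7.14%, against 4.38%) and 4 lower (9.52%, against 7.77%) than in D16S+, and 5 were higher (11.9%, against 6.79%) and 2 lower (4.76%, against 7.41%) than in mESCs.

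Among the other ligands and receptors, 3 of 6 were kept. Igf2, the second ligand, was at 83.5 FPKM in D0, 15.9 in D3, 5.13 in D6T-, 27.4 in D6T+, 59.8 in D16S+, 184 in D16S-, 192 in iPSCs and 22.3 in mESCs. Its log2 difference was 1.19 between iPSCs and D0 and -1.61 between the day 16 fractions, so that iPSCs and D16S- were its highest libraries. Igf2r, a receptor that clears IGF-2, was at 167 FPKM in D0 and 31.4 in iPSCs (-2.38). Igf2 overlaps the antisense gene Igf2os, whose reads cannot be told from its own if strand was not used. The insulin gene Ins1 was listed at 0 in all 12 libraries. Of the other carriers and the acid-labile subunit, 2 of 3 were kept, and Igfbp1 was at most 0.0449 FPKM.

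The proteases that cut the carriers and their inhibitors were lower in iPSCs than in D0 for 4 of 6 kept genes, with 0 higher and a list median of -1.99, where 21.6% of all genes were lower and their median was 0.03. These were Htra1 (-2.16), a secreted protease, Adamts1 (-3.32), a matrix protease, the lysosomal protease gene Ctsd (-1.82) and Stc1 (-5.10), a gene of the stanniocalcin family of PAPP-A inhibitors. The same 4 were lower in D16S+ than in D16S-, by -1.28, -2.90, -1.37 and -2.77. There the list had 0 higher and a median of -1.32, where 15.2% of all genes were lower. Stc1 was at 38.8 FPKM in D0, 2.66 in D3 and 0.163 in iPSCs.

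Of 23 kept genes for adaptors and signal relay, 3 were higher (13.0%) and 7 lower (30.4%) in iPSCs than in D0, not far from the 18.7% and 21.6% of all genes, with a list median of -0.33. The AKT kinase gene Akt1 went with the lower ones, at 356 FPKM in D0, 61.0 in D16S+, 165 in D16S- and 59.8 in iPSCs (-2.55 between iPSCs and D0, and -1.42 between the fractions). The adaptor genes Grb14 (-3.63), Grb10 (-1.53) and Shc1 (-1.12) and the PI3-kinase subunit gene Pik3r2 (-1.51) were also lower, although Shc1 (-0.88) did not pass with equal totals. The PI3-kinase catalytic gene Pik3cb (1.94) and Pdpk1 (1.30), which encodes the kinase PDK1 upstream of AKT, were higher. Between the day 16 fractions, Akt1, Grb10 (-1.20), Grb14 (-1.29) and the adaptor gene Irs2 (-1.42) were lower in D16S+ and 0 of the 23 were higher. These 4 lower genes were 17.4% of the list, near the 15.2% of all genes.

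Of the 3 genes for IGF2 mRNA-binding proteins, Igf2bp1 was higher in iPSCs than in D0 (3.53) and in D16S+ than in D16S- (2.04), at 8.43 FPKM in D0, 57.9 in D16S+, 13.3 in D16S- and 108 in iPSCs. The 5 CCN genes encode matrix proteins once classed with the IGFBP-related proteins. Ctgf was higher in iPSCs than in D0 (1.53), and Wisp1 (-3.24) and Nov (-2.80) were lower. Cyr61 (-1.99) and Wisp2 (-1.58) were lower in D16S+ than in D16S-.

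**Figure D4:**
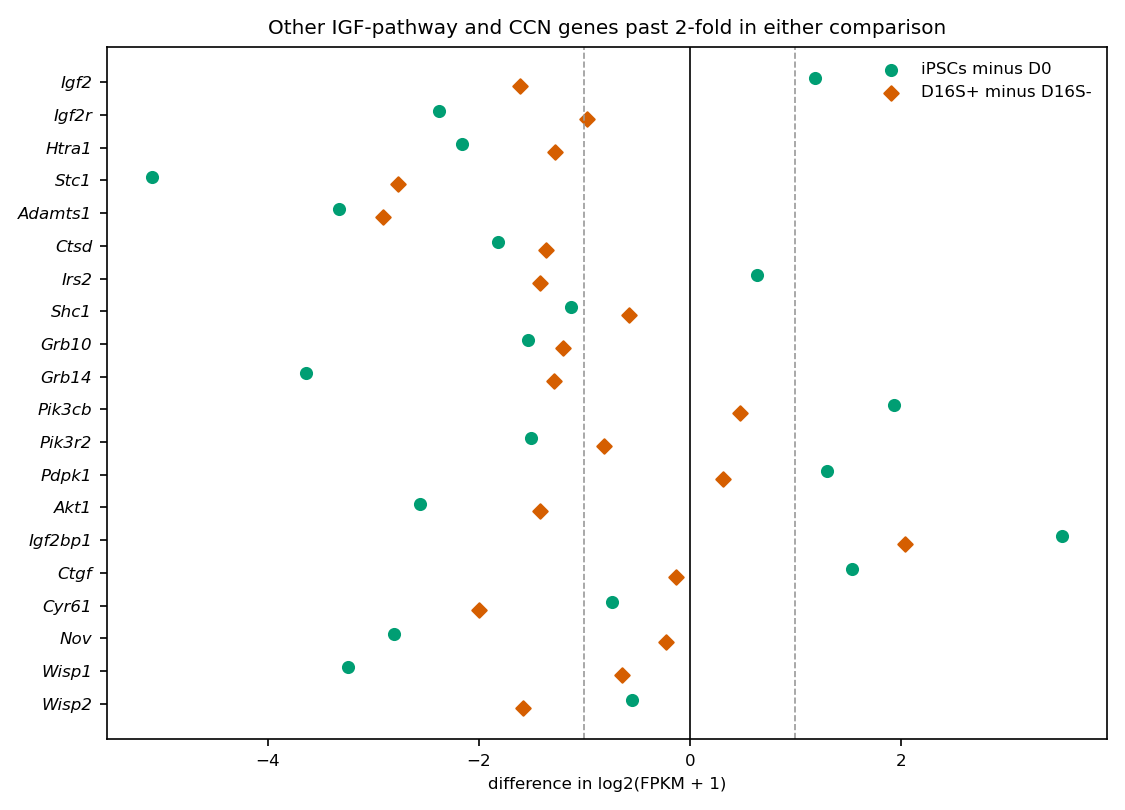
Difference in log2(FPKM + 1) between iPSCs and D0 (circles) and between D16S+ and D16S- (diamonds) for the 20 other pathway and CCN genes with at least 10 FPKM in some library and a 2-fold difference in either comparison, 1 library per condition; dashed lines mark 2-fold. Igf2bp1 lies past 2-fold on the higher side in both, and Stc1 and Adamts1 are the lowest in D16S+ against D16S-, at -2.77 and -2.90.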

How the data were processed

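mRNA libraries were prepared from polyA RNA with a TruSeq kit, stranded per the labels, and sequenced on a HiSeq instrument. The authors mapped reads to mm9 with STAR, removed reads with more than 2 mismatches or more than 1 locus, and estimated gene levels with cuffdiff. The deposited values are FPKM with the interval of cuffdiff. Versions, gene annotation, library scaling and strand setting are not given in the sources used here. A gene with a close copy elsewhere loses reads by the second filter. Groups were taken from the titles, and columns were matched by day and sorting sign. The 12 status columns of cuffdiff were not used as data; all 8 genes had an OK status in all libraries. The number of fragments per library, and so the absolute depth, is unknown here.

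Differences were taken on log2(FPKM + 1), which understates the change of low genes, with a filter of 1 FPKM in at least 1 library and a threshold of 2-fold, in Python 3.11.15 with pandas 2.3.3, numpy 2.4.6 and matplotlib 3.10.9. The functions were first tested on simulated data. The members and lists were chosen with earlier results of these data known. Other pathway genes are named when they reached 10 FPKM and passed 2-fold between iPSCs and D0 or between D16S+ and D16S-, and for each of the 8 genes the 3 with the highest Pearson correlation are named. Ligands and receptors, other carriers, proteases, adaptors, IGF2 mRNA-binding proteins and CCN genes formed the pathway lists. Alternatives were a pseudocount of 0.1, equal total FPKM, median-of-ratios scaling, a 4-fold threshold, no filter, Spearman correlation and a lower filter for likeness. Positions are from GENCODE M1 (mm9), promoters from RefSeq (GRCm38.p6), without conversion between builds.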

Additional observations from a re-analysis of the deposited data

How the results depend on the processing

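No difference past 2-fold, of a member or a named pathway gene, changed direction under the alternatives, but none could have. A pseudocount, threshold or filter cannot turn a sign. The total FPKM (484968 to 648264) and the median-of-ratios factors (0.967 to 1.04) differed too little to turn a difference past 2-fold. Below 2-fold, equal total FPKM turned the sign of 4 of 88 member differences, namely Igfbp3 in D16S+ against D0 (0.33), Igfbp6 in D3 against D0 (0.08), and Igf1r in D6T+ (0.15) and D16S- (0.09) against D0. Median-of-ratios scaling turned 1, Igfbp3 in D16S+ against D0 (0.01). Of 110 counts of members recomputed over the 11 comparisons, 100 stayed within 1.5 times, but the 110 include 22 without the filter, which could not change. A 4-fold threshold, stricter by construction, left 0 higher and 0 lower in D6T+ against D0, 2 lower in D6T- against D6T+, 0 higher and 0 lower in D12S+ against D12S-, 0 higher in D16S+ against D16S-, 1 lower in iPSCs against D16S+ and 0 lower in iPSCs against mESCs. With a pseudocount of 0.1 FPKM, 2 genes were higher in iPSCs than in mESCs, Igfbp7 (1.18) joining Igfbp6, and Igf1, below 1 FPKM in most libraries, also passed 2-fold between the day 16 fractions (-2.04), in D6T+ (-1.12) and D16S- (-1.42) against D0, and in iPSCs against mESCs (-1.43). With equal total FPKM, 1 gene was lower in D12S+ than in D12S-, since Igfbp4 (-0.96) no longer passed. Of 440 log2 differences of single members, 407 kept their side of the threshold. The 440 include 88 without the filter, which could not change. Median-of-ratios scaling took Igfbp3 in D9T- against D9T+ to -1.01 and Igfbp6 in D12S+ against D12S- to -1.02, past 2-fold. With Spearman correlation, 0 of the 3 most similar genes stayed among the first 3 for Igf1r, Igfbp2, Igfbp4, Igfbp5 and Igfbp7, and 1 for Igf1. With a pseudocount of 0.1 FPKM, 1 of the 3 stayed for Igf1, Igfbp2, Igfbp5 and Igfbp6. Leaving Igfbp7 out of the carrier sum, chosen after seeing the data, made Igfbp4 the leading carrier of D0 with 52.1% and Igfbp3 that of D3 with 41.6%. No paired test was run, because each condition had 1 library, and no result came from a test. The same-day fractions are given as differences within each day, and the 4 days, sorted on different markers, are not replicates of 1 condition. Absolute depth is unknown here, so what it limits could not be given.

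For the 42 pathway genes the alternatives were added after seeing the data, and 83 of 110 recomputed counts stayed within 1.5 times. These 110 also include 22 without the filter, which could not change. With a 4-fold threshold, D3 had 0 higher and 2 lower against D0, D6T+ 1 higher and 0 lower, D16S+ 1 and 9, D16S- 1 and 3, and iPSCs 1 and 9. At the same threshold 5 were lower in D6T- than in D6T+, 0 higher and 0 lower in D12S+ against D12S-, 2 lower in D16S+ than in D16S-, 0 and 0 in iPSCs against D16S+, and 0 lower in iPSCs than in mESCs. With a pseudocount of 0.1 FPKM, 5 were higher in D6T+ than in D0, 1 higher in D6T- than in D6T+, 4 lower in D12S+ than in D12S-, 2 higher in D16S+ than in D16S-, 8 lower in iPSCs than in D16S+, and 8 higher and 4 lower in iPSCs than in mESCs. With equal total FPKM, 3 were lower in D3 and 6 in D16S- than in D0, and 2 higher in D16S+ than in D16S-.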
